A study of Mus musculus with 12 samples.

Results

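A set of 9 regulators of the somites and of skeletal muscle was followed through 12 maps of open chromatin from mouse embryoid bodies: Pax3, Pax7, Myf5, Myf6, Myod1, Myog, Six4, Eya1 and Meox1. The maps came from ATAC-seq, in which the Tn5 transposase cuts and tags accessible DNA, and each deposited list gives the summit (the point of highest signal) of every accessible peak called in 1 library. A summit was assigned to one of the 9 genes if the nearest end of a protein-coding gene within 100 kb belonged to it, or if the summit lay inside its body. This took in 214 of the 386209 summits on chromosomes 1 to 19 and X, and 9 of 21631 protein-coding genes. Summits within 250 bp of each other were merged into regions, which gave 64 regions of the 9 genes, of 104822 in the genome. All positions are mm10.

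Embryonic stem cells were differentiated in shaken suspension under mesodermal conditions and collected at days 3, 5 and 10. The knockout (KO) groups are labelled FoxK1_KO at days 3 and 5 and Foxk1_KO at day 10. The comparison groups are labelled iFoxk1_ND at days 3 and 5, from the line named iHA-Foxk1, and Control at day 10, and are called controls below. Every group has 2 libraries, and all 12 carry the description NoDox, the KO libraries included. Foxk1 is a forkhead transcription factor known from muscle progenitor cells. The part of Foxk1 that was deleted, the parental line and the number of clones are not given in the sources used here. Stem cells had been kept on irradiated mouse fibroblasts, which were removed by plating before differentiation, and embryoid bodies mix several cell types. In such bulk material, fewer cells with an open region and less open chromatin per cell cannot be told apart.

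In the embryo, Pax3 and Pax7, a pair of related paired-box factors, mark the dermomyotome and the muscle progenitors that derive from it. Homeodomain proteins such as Six4 and their Eya coactivators act with them upstream of Myf5, Myod1, Myf6 and Myog, the 4 basic helix-loop-helix factors that commit cells to skeletal muscle and drive its differentiation. Meox1 is a homeobox gene of the early somite. Mesodermal embryoid bodies pass through streak-like and early mesodermal stages well before muscle forms, and an accessible region near these genes need not mean that the gene is transcribed.

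Lists differed in length. They held 53456 to 59006 summits at day 3, 14519 to 48391 at day 5 and 4028 to 10548 at day 10, and read depth is unknown because the lists carry no counts. At day 5 the controls had 14519 and 34040 summits and the KO 48391 and 42129. Between 80.7% and 82.8% of all genes had a summit at day 3, 53.0% to 79.0% at day 5 and 15.2% to 40.1% at day 10. Comparisons between genotypes therefore used the N best-scoring summits of each library, N being the shortest list of the day (53456, 14519 and 4028 at days 3, 5 and 10). Both KO lists labelled day 5 have D7 in their peak names, so genotype and age cannot be told apart there. Names in the day 10 lists lack the mark of duplicate removal that those of days 3 and 5 have, and time and processing cannot be told apart there either. Of 7 fibroblast genes, 6 to 7 had a summit at day 3, 4 to 7 at day 5 and 0 at day 10. All 6 pluripotency genes and all 6 neural genes had one in each day 3 library, and 4 to 6 of 6 cardiac and 5 to 6 of 6 streak genes did. These lists fell as well. At day 5 it was 2 to 6 pluripotency, 1 to 6 neural, 2 to 5 cardiac and 2 to 5 streak genes. At day 10 it was 1 to 3 pluripotency, 0 neural, 1 cardiac and 0 streak genes.

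A set of 4 promoter windows shows how differently the start sites of these genes appeared. Each runs from 250 bases before to 50 bases after a RefSeq start site of GRCm38.p6 (the assembly of mm10), and matched entries were found for Pax7, Myf5, Myog and Six4, which has a pair of overlapping windows. In the Pax7, Myf5 and Six4 windows the capitals mark the stretch between the outermost summits of the region at the start site, as far as it lies inside the window. In the Myog window, which held no summit, they mark matches to the E-box CANNTG, the motif bound by basic helix-loop-helix factors.
Six4, chr12:73113376-73113675, minus strand: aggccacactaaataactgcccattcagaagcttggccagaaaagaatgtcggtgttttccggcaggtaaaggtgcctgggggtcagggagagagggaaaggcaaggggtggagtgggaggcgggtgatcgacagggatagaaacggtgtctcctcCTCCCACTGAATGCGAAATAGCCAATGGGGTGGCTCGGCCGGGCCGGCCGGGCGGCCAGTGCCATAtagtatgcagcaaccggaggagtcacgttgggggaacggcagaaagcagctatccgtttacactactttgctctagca
Pax7, chr4:139832919-139833218, minus strand: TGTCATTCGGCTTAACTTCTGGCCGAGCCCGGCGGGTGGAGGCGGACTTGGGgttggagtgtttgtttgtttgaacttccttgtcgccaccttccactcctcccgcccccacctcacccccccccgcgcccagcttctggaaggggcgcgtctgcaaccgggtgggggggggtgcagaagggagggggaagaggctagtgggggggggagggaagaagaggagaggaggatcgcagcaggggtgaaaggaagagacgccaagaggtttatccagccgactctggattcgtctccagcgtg
Myf5, chr10:107486085-107486384, minus strand: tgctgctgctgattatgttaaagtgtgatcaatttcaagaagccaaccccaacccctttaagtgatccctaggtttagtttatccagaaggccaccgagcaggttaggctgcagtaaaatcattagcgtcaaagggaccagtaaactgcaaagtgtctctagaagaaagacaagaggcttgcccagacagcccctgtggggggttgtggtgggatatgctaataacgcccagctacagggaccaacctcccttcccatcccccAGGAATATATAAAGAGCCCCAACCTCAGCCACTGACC
Myog, chr1:134289754-134290053, plus strand: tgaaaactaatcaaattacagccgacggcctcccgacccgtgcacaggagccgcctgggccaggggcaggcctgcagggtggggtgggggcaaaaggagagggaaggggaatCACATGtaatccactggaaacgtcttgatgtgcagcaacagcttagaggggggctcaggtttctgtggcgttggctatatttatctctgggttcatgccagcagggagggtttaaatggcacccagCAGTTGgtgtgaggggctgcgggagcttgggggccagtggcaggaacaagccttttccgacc

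The Six4 window held a summit in 8 libraries, all those of days 3 and 5. Pax7 had one inside the window in 3 libraries, Myf5 in 1 and Myog in 0 of 12. Over all 32619 RefSeq windows of the same length, 28.8% to 30.2% held a summit in a day 3 library, 14.7% to 30.0% at day 5 and 5.78% to 18.3% at day 10. The 4 windows held 15 (Six4), 17 (Pax7), 3 (Myf5) and 9 (Myog) CG dinucleotides, against a median of 7 over all windows. At day 3, 54.3% to 56.9% of windows above that median held a summit and 4.28% to 4.54% of the others. Six4, Pax7 and Myog lie above the median and Myf5 below it, and Myog held no summit all the same.

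Motifs searched on both strands were the E-box CANNTG, a forkhead site GTAAACA, a T-box site TCACACCT and a loose MEF2 spelling (CTA and TAG with any 4 bases between them). Of all windows, 72.3% hold the E-box, 3.67% the forkhead, 1.28% the T-box and 3.71% the loose MEF2 spelling. The Myog window has E-boxes that start 138 bases (CACATG) and 12 bases (CAGTTG) before the start site. The Myf5 window has 1 match to the loose MEF2 spelling (CTAGGTTTAG), which starts 182 bases before its start site. Other spellings were not searched, so a match need not be a bound site and a window without one may still hold a site. None of these matches overlaps another. The Pax7 and Six4 windows hold none of the 4 motifs as spelled here, which says only that these letters are not in the windows.

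As a set, the 9 genes had summits at days 3 and 5 and none at day 10. Full lists held 30 and 37 summits of the 9 genes in the day 3 controls, 37 and 35 in the day 3 KO, 4 and 15 in the day 5 controls and 32 and 24 in the day 5 KO. All 4 day 10 libraries held 0. The genotypes overlap at day 3, and at day 5 both KO libraries are above both controls. Per 10000 summits of the list, the means were 6.22 ± 0.869 (SD, n = 2) in the control and 6.41 ± 0.196 in the KO at day 3, and 3.58 ± 1.17 and 6.15 ± 0.648 at day 5. That day 5 order did not hold among the 14519 best-scoring summits, where the controls had 4 and 3 and the KO 2 and 3. With control replicate 1 left out, the 34040 best-scoring summits gave 15 in the remaining control and 20 and 18 in the KO. At that length both KO libraries stayed above the remaining control. Summits of the 9 genes lay in the weaker part of the lists, with a median place between 55.3% and 61.4% from the top at day 3 and between 57.1% and 67.4% at day 5.

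**Figure D1:**
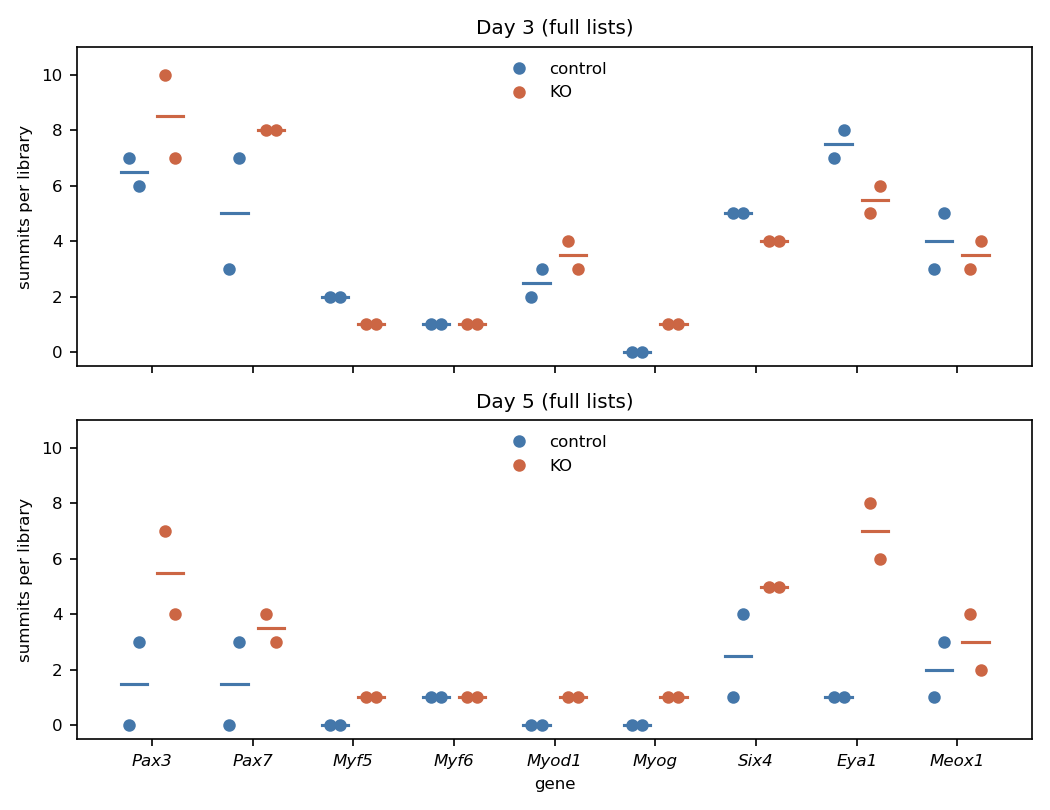
Summits per library (vertical axis, full lists) for each of the 9 genes at day 3 (top) and day 5 (bottom). Points are libraries, lines are means of 2 libraries, blue is control and orange is KO. At day 5 Eya1 shows the widest gap, with 1 summit in each control and 8 and 6 in the KO, and the KO lists were longer that day.

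The plot of summits per gene shows that long genes (Pax3, Pax7 and Eya1, of 95870, 96472 and 142083 bp) and the 14423 bp Six4 carried most summits, and that the muscle determination genes, of 1876 to 4020 bp, carried few. Summits over all 12 lists numbered 44 for Pax3, 42 for Eya1, 36 for Pax7, 33 for Six4, 25 for Meox1, 14 for Myod1, 8 each for Myf5 and Myf6 and 4 for Myog. Pax3 had more than 93.6% of all genes, Eya1 more than 93.0%, Pax7 more than 89.9%, Six4 more than 87.8% and Meox1 more than 79.9%. Myod1, with more than 55.8%, was near the middle, and Myf5, Myf6 (28.7% each) and Myog (18.4%) were in the lower part. These numbers are not corrected for gene length or for the distance to the next gene.

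The upstream paired-box genes come first. Pax3 (gene 18505, chromosome 1, 78101267 to 78197136) held 7 and 6 summits in the day 3 controls, 10 and 7 in the day 3 KO, 0 and 3 in the day 5 controls and 7 and 4 in the day 5 KO. On full lists the KO was higher or equal at day 3 and higher at day 5. Its 12 regions comprised 1 within 1 kb of a gene end, 7 elsewhere in the body and 4 outside. The most frequent were found in 7 of the 8 libraries of days 3 and 5, all but control replicate 1 of day 5. One of them, 78189547 to 78189740, lies in the body about 7.5 kb from the upper end, and ranked at 56.9% and 44.9% of the list in the day 3 controls and at 29.1% and 40.6% in the day 3 KO. Another, 78196884 to 78197073, lies at the upper end and ranked at 41% and 61.4% in the day 3 controls and 41.8% and 47.5% in the day 3 KO. In the body region the KO libraries of day 3 stood nearer the top of their lists than both controls, and at the end region the genotypes overlapped. Here and below, a complete separation of the genotypes within a day, in place or in number, is a description. It can give no exact permutation p under 0.333. The share of all regions or genes with such a separation is not given, so none is read as a genotype effect.

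A further pair of Pax3 regions had 6 libraries each. The region 78182044 to 78182132, in the body, ranked at 93.4% and 38.6% in the day 3 controls, 25.9% and 29.4% in the day 3 KO, 67.4% in control replicate 2 of day 5 and 53.6% in KO replicate 1 of day 5. The region 78008950 to 78008975, 92.3 kb below the gene, had a summit in all 4 KO libraries and both day 3 controls, ranked at 27.5% to 61.3%. That region is the Pax3 member closest to the 100 kb limit. Just outside, 129 kb from the gene, lies a run of summits at 77972484 to 77972520 in all 4 day 3 libraries and KO replicate 1 of day 5, which were not counted.

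Pax7 (gene 18509, chromosome 4, 139737059 to 139833530) held 3 and 7 summits in the day 3 controls, 8 and 8 in the day 3 KO, 0 and 3 in the day 5 controls and 4 and 3 in the day 5 KO. Its 16 regions were the most of any of the 9 genes, and 7 of them were seen in a single library. The start-site region 139833167 to 139833293 was the exception, with a summit in 7 of 8 libraries, all but control replicate 1 of day 5. It ranked at 68.3% and 86.8% in the day 3 controls and at 66.2% and 69.4% in the day 3 KO. The start site meant here is that of the printed window. The annotated gene reaches beyond this region, to 139833530, so distances before the start site refer to that site alone. Summits of the region in the 3 control libraries lay 199, 244 and 221 bases before the start site. Those of the 4 KO libraries lay 292, 292, 265 and 325 bases before it. Within this region every KO summit was thus farther upstream than every control summit. That shift was noticed in the values, is described without a test, and spans fewer bases than the 250 bp used to merge summits. It does not cover the neighbouring region 139832731 to 139832886. There control replicate 1 of day 3 had a summit 237 bases after the start site (98.7%). KO replicate 2 of day 5 had one 82 bases after it (84.9%), ranked close to its upstream summit (84.8%). Inside the gene, 139821462 to 139821727 had a summit in all 4 KO libraries and 1 control library, and 139818397 to 139818427 in 3 KO libraries and 1 control library.

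**Figure D2:**
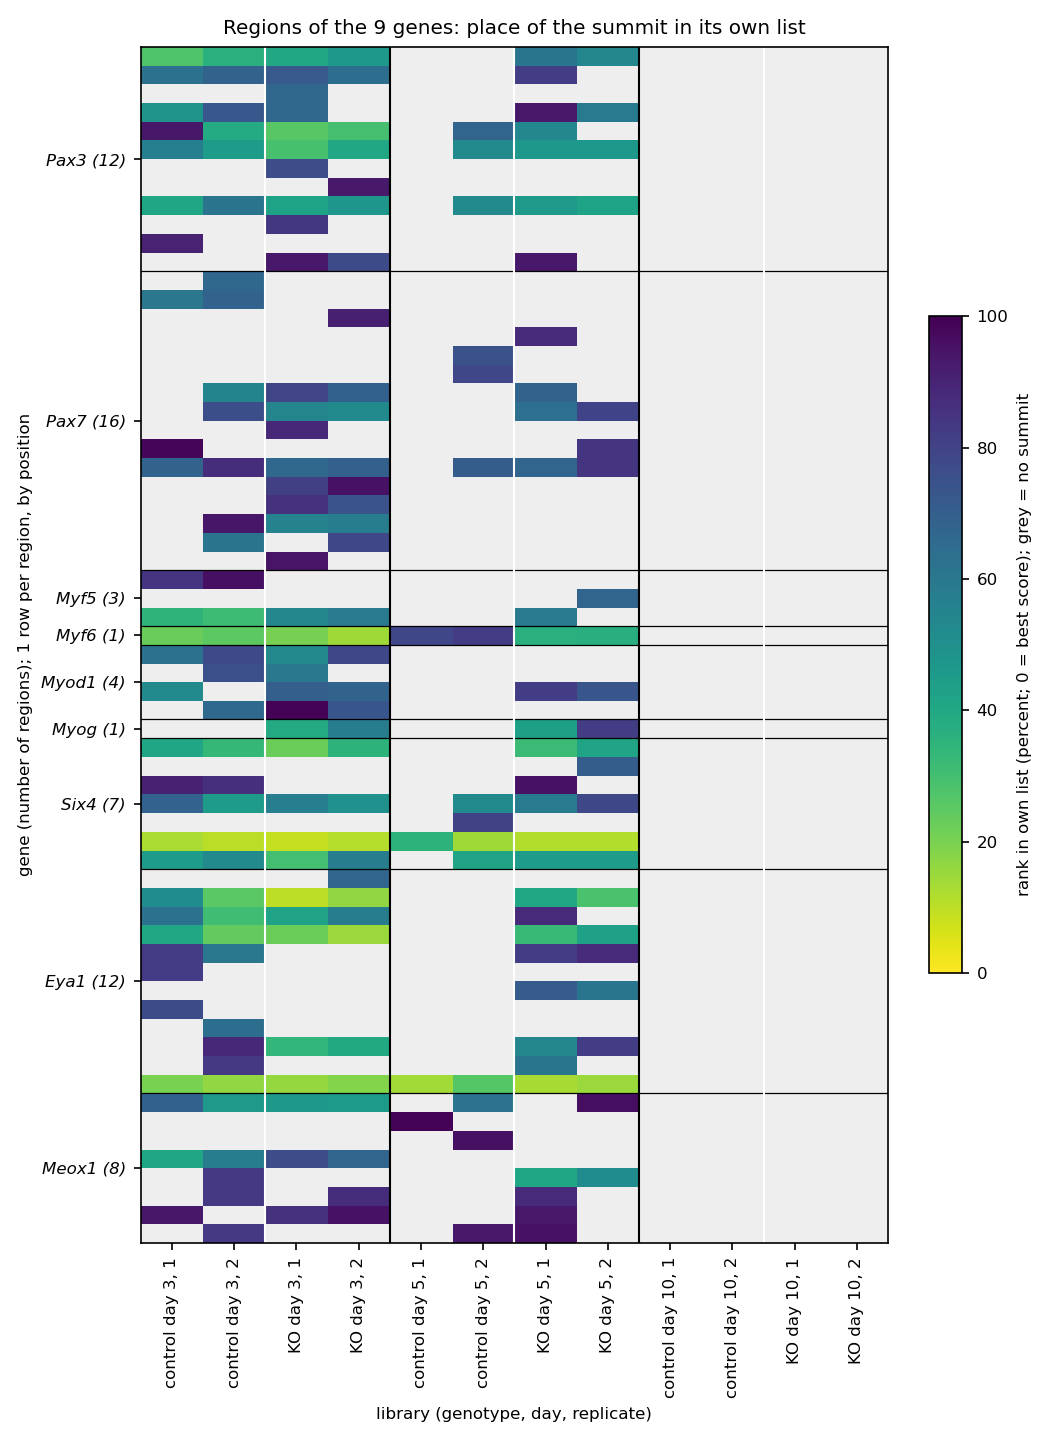
Place of the summit in its own list (colour, 0% is the best score, grey is no summit) for the 64 regions of the 9 genes (rows, by position within each gene) in the 12 libraries (columns). The day 10 columns are empty, and the column of control replicate 1 at day 5 holds 4 regions.

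The genes Six4 and Eya1 encode a pair of proteins that act together, the DNA-binding homeodomain factor and the coactivator that binds it. Both had a region that all 8 libraries of days 3 and 5 shared. For Six4 (gene 20474, chromosome 12, 73099609 to 73114031) it is the start-site region printed above, 73113454 to 73113519, which ranked at 12.5% and 10.4% in the day 3 controls, 8.93% and 11.2% in the day 3 KO, 35.5% and 14.4% in the day 5 controls and 11.7% and 11.6% in the day 5 KO. The 7 libraries other than control replicate 1 of day 5 placed it between 8.93% and 14.4%, and the genotypes overlap. In 6 of the 8 libraries the summit lay 29 or 30 bases before the start site of the printed window, in control replicate 2 of day 3 it lay 94 bases before it and in control replicate 1 of day 5 47 bases. In total Six4 held 5 and 5 summits in the day 3 controls, 4 and 4 in the day 3 KO, 1 and 4 in the day 5 controls and 5 and 5 in the day 5 KO. The day 3 difference is 1 region, 73110489 to 73110804 in the body, with weak summits at 90.9% and 86.5% in the controls, none in the day 3 KO, and one at 95.3% in KO replicate 1 of day 5. This region is nearer to an end of the overlapping gene Mnat1 than to an end of Six4. The day 3 difference therefore cannot be assigned to Six4. The control summits lie more than 250 bp apart and are joined through the KO day 5 summit between them, so they form separate regions when the day 3 libraries are merged alone.

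Other Six4 regions recurred as well. The regions 73112045 to 73112268, in the body, and 73123736 to 73123865, 9.8 kb above the gene, each had a summit in all libraries of days 3 and 5 but control replicate 1 of day 5. The region 73085958 to 73086071, 13.6 kb below the gene, had one in all 4 KO libraries and in both day 3 controls, at 22.6% to 41.6% of the list. Six4 overlaps the gene Mnat1, and 3 of its 7 regions are nearer to an end of Mnat1 than to an end of Six4, so the lists cannot assign them to either gene.

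Eya1 (gene 14048, chromosome 1, 14168953 to 14311035) held 7 and 8 summits in the day 3 controls, 5 and 6 in the day 3 KO, 1 and 1 in the day 5 controls and 8 and 6 in the day 5 KO. The genotypes did not overlap at either day, and the order was opposite: controls higher at day 3, KO higher at day 5. Neither separation can give an exact permutation p under 0.333 within its day. At equal list length the day 5 gap was small (1 and 1 against 1 and 2 among the 14519 best). Without control replicate 1 it was larger: among the 34040 best, the remaining control had 1 Eya1 summit and the KO 5 and 4. Its shared region 14309764 to 14309894, in the body 1.2 kb from the upper end, ranked at 20.2% and 16.4% in the day 3 controls, 15.9% and 18.5% in the day 3 KO, 13.9% and 26.4% in the day 5 controls and 12.9% and 15.1% in the day 5 KO. It stayed within the best 26.4% of every list of days 3 and 5.

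A cluster of 3 regions below Eya1 carried some of the better-ranked summits of the 9 genes. The region 14085142 to 14085470, 83.6 kb below the gene, ranked at 51.2% and 25.5% in the day 3 controls, 9.88% and 16.4% in the day 3 KO, and 40.5% and 28.9% in the day 5 KO. The region 14113613 to 14113979, 55.2 kb below, ranked at 40.0% and 24.0% in the day 3 controls, 22.5% and 15.1% in the day 3 KO and 32.3% and 42.7% in the day 5 KO. In both regions the day 3 KO libraries stood nearer the top than both controls, and no day 5 control had a summit. These orders are described without a test, and the share of all regions with such an order is not given. The third, 14097999 to 14098063, had a summit in all 4 day 3 libraries and in KO replicate 1 of day 5 (87.8%). In the body, 14292326 to 14292411 had a summit in all 4 KO libraries (33.9% to 81.7%) and in control replicate 2 of day 3 (88.9%). The lowest Eya1 summit counted lay 89.2 kb from the gene. Just outside the 100 kb limit, summits at 14052004 to 14052033, about 117 kb below it, occurred in control replicate 2 of day 5 and in 3 day 10 libraries, among the best 12.8% to 22.5% of those day 10 lists.

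**Figure D3:**
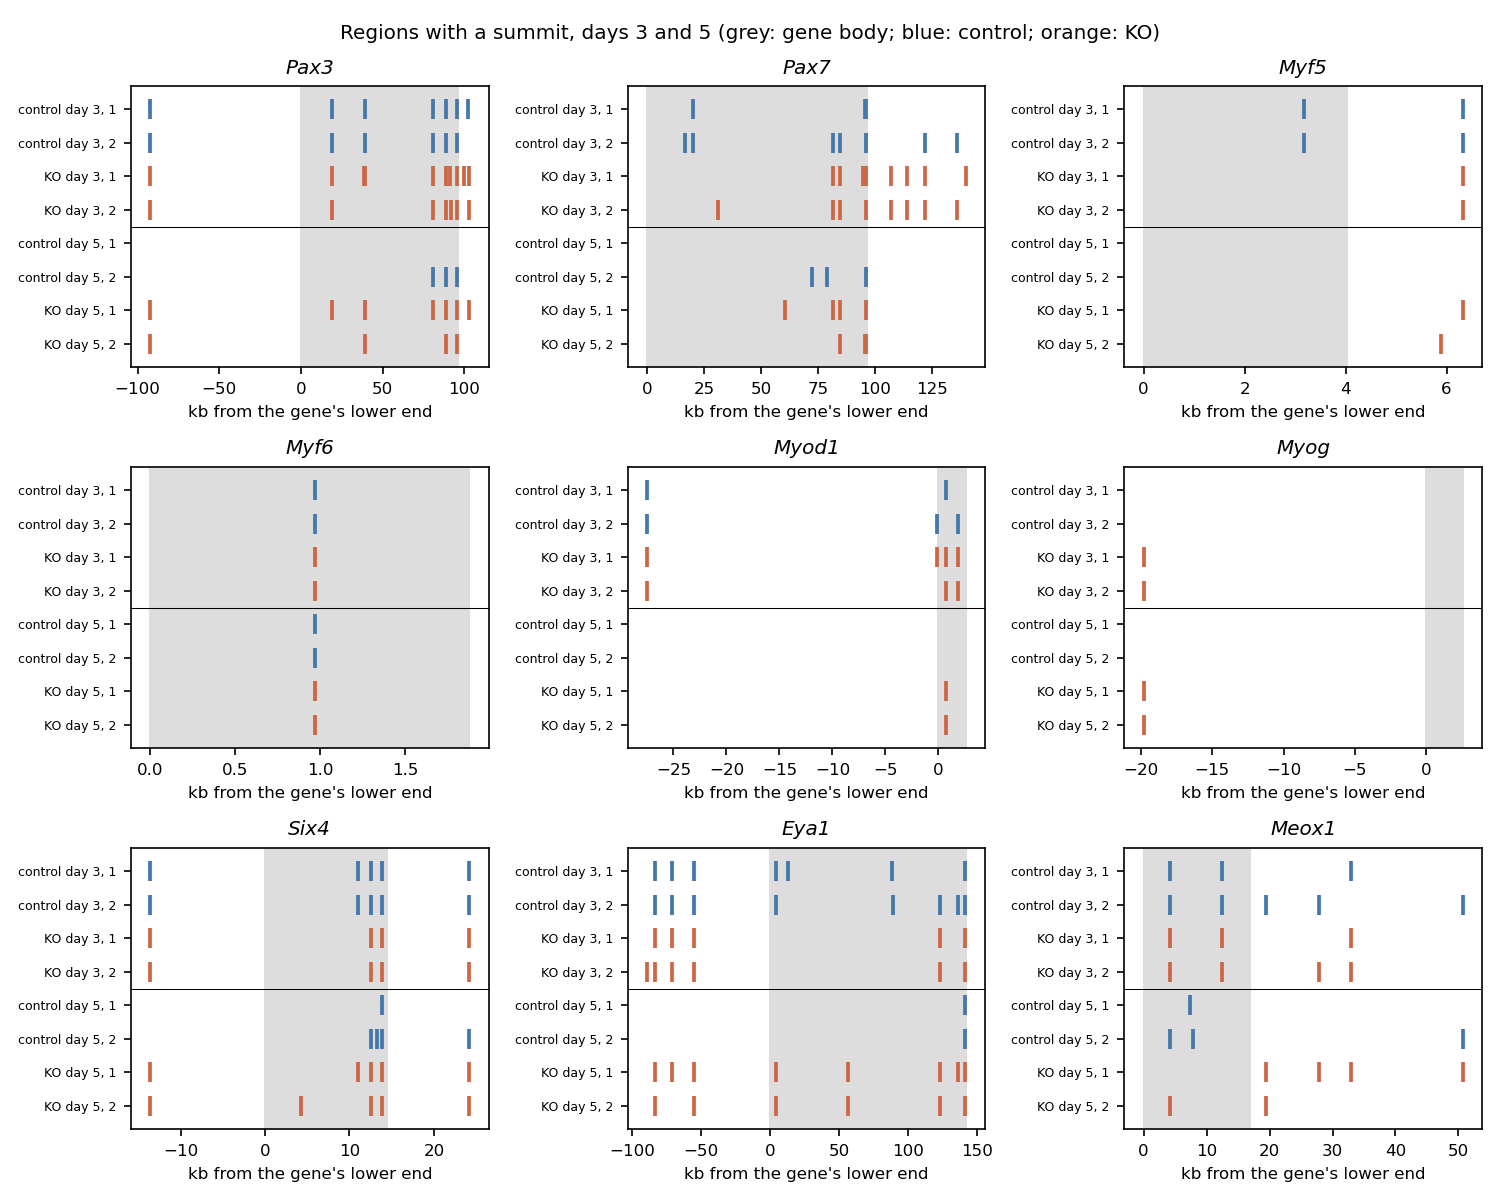
Position of the regions of each gene (ticks) in the 8 libraries of days 3 and 5, in kb from the lower end of the gene, with the gene body in grey, controls in blue and KO in orange. Myf6 has 1 region in all 8 libraries, and the only Myog region lies 19.8 kb below the gene in the 4 KO libraries.

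Meox1 (gene 17285, chromosome 11, 101877510 to 101894354) held 3 and 5 summits in the day 3 controls, 3 and 4 in the day 3 KO, 1 and 3 in the day 5 controls and 4 and 2 in the day 5 KO. The genotypes overlap at both days. Of its 8 regions, 101881639 to 101881789 in the body was found most often, in 6 libraries (3 of each genotype), at 45.4% to 69.1% of the list except in KO replicate 2 of day 5 (96.1%). A region 12.4 kb into the body, 101889914 to 101889994, had a summit in all 4 day 3 libraries and in none of day 5. Its ranks were 40.7% and 57.6% in the controls and 76.4% and 67.3% in the KO, so that both controls stood nearer the top. The region 101910367 to 101910495, 16.1 kb above the gene, was weak wherever it was found, at 93.4% in 1 day 3 control, 85.7% and 95.3% in the day 3 KO and 93.3% in KO replicate 1 of day 5.

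The 4 muscle determination genes differed among themselves. Myf6 (gene 17878, chromosome 10, 107492848 to 107494723) held exactly 1 summit in each of the 8 libraries of days 3 and 5, always in the region 107493605 to 107494029 within the gene. It ranked at 23.0% and 25.2% in the day 3 controls, 20.4% and 14.3% in the day 3 KO, 78.6% and 82.1% in the day 5 controls and 36.4% and 37.2% in the day 5 KO. At both days the KO libraries placed it nearer the top than the controls, and at day 5 both genotypes placed it lower than at day 3. Places are relative to each list, and the day 5 control lists were shorter. In absolute order the summit was number 11416 and 27936 in the day 5 controls and 17612 and 15655 in the day 5 KO, so by that measure the genotypes overlap.

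Myf5 (gene 17877, chromosome 10, 107482908 to 107486927) is the close neighbour of Myf6, with 5921 bp between the genes. It held 2 and 2 summits in the day 3 controls, 1 and 1 in the day 3 KO, 0 and 0 in the day 5 controls and 1 and 1 in the day 5 KO. The genotypes did not overlap at day 3, when the controls had 1 summit more. That summit is the one at the start site, in the region 107486064 to 107486121, 70 and 13 bases after the first transcribed base of the window printed above. It was weak, at 84.7% and 95.9% of the control lists, and no KO library held one. The other recurrent region, 107489102 to 107489344, lies between Myf5 and Myf6, 2.3 kb from Myf5. It ranked at 34.9% and 31.6% in the day 3 controls, 53.9% and 58.8% in the day 3 KO and 59.1% in KO replicate 1 of day 5, with both day 3 controls nearer the top than any KO library.

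Myod1 (gene 17927, chromosome 7, 46376474 to 46379092) held 2 and 3 summits in the day 3 controls, 4 and 3 in the day 3 KO, 0 and 0 in the day 5 controls and 1 and 1 in the day 5 KO. Of its 4 regions, 3 lie within 1 kb of a gene end. The region 46377155 to 46377193, 0.7 kb inside the lower end, had a summit in all 4 KO libraries (68.3% to 81.9%) and in control replicate 1 of day 3 (52.6%). The region 46348922 to 46349054, 27.5 kb below the gene, had one in all 4 day 3 libraries, at 62.4% and 78.0% in the controls and 52.9% and 78.7% in the KO, and in none of day 5. Near the upper end, 46378259 to 46378311 had one in both day 3 KO libraries (99.1% and 73.2%) and in control replicate 2 of day 3 (65.7%). All 4 regions were found in both genotypes.

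Myog (gene 17928, chromosome 1, 134290004 to 134292548), whose product acts late, when myoblasts differentiate, held the fewest summits. There were 0 and 0 in the controls of days 3 and 5 and 1 in each of the 4 KO libraries of those days. All lie in 1 region, 134270170 to 134270248, 19.8 kb below the gene, and none at its start site. They ranked at 38.8% and 58.1% of the day 3 KO lists and 43.3% and 81.7% of the day 5 KO lists. Of the 17 regions of the 9 genes found in all 4 KO or in all 4 control libraries of days 3 and 5 (full lists), this was the only one present in all 4 KO and in no control library, and 0 were present in all 4 controls and no KO library. Over the genome 3.17% of 30201 such regions showed the first pattern and 0.228% the second. The KO lists of day 5 were longer, and at day 5 the 14519 best-scoring summits of the KO libraries did not include it. Among the 34040 best it was present in KO replicate 1 and absent from replicate 2.

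Regions were then compared between genotypes at equal list length, with summits merged anew over the libraries of each comparison, so that their bounds can differ from those above. A region was called reproducible if both libraries of at least 1 group held it, KO-only if both KO and neither control did, and control-only in the reverse case. At day 3, 32 regions of the 9 genes were reproducible and every gene had at least 1. Of these, 3 (9.38%) were KO-only and 3 (9.38%) control-only, against 9.77% and 9.59% of 52268 reproducible regions in the genome. The share of the 9 genes was thus close to the background in both directions. KO-only were the Myog region and a pair of weak Pax7 regions above the gene, 139843598 to 139843812 (10.2 kb away, 81.0% and 95.3%) and 139850957 to 139850991 (17.4 kb away, 85.7% and 74.6%). Control-only were the Myf5 start-site region, a Pax7 region in the body (139757100 to 139757113, 60.2% and 68.2%) and an Eya1 region in the body (14173462 to 14173655, 82.5% and 59.8%). The Eya1 region was present in the full lists of both KO libraries labelled day 5 (81.9% and 87.6%), so its absence from the KO did not extend to those lists. On full day 3 lists, 4 of 34 regions were KO-only and 3 control-only (10.7% and 8.81% in the genome), and the additional one lies above Pax3 at 78203735 to 78203900.

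At day 5 only 2 regions of the 9 genes were reproducible at equal length, and 0 were KO-only and 0 control-only (12.1% and 7.96% of 14278 regions in the genome). The shortest list sets that number. Without control replicate 1, and with the other 3 libraries at 34040 summits, 19 regions were reproducible, of which 5 were KO-only and 5 control-only (19.9% and 27.6% in the genome, where a single control library decides). The KO-only ones lay near Eya1 (14085327 to 14085428), Pax3 (78008958 to 78008962), Pax7 (139821615 to 139821627), Meox1 (101897004 to 101897007) and Six4 (73085958 to 73086031). The control-only ones, each a summit of the 1 remaining control library, lay near Pax7 (139809433 and 139815956), Meox1 (101881724 and 101885381) and Six4 (73112784). Pax7, Meox1 and Six4 thus had regions of both kinds. On full day 5 lists 11 of 20 were KO-only and 0 control-only, where the genome had 36.9% and 2.0%, and the KO lists held 48391 and 42129 summits against 14519 and 34040. At day 10 there was no region of the 9 genes to compare, while 9.89% and 11.9% of 3641 regions in the genome were KO-only and control-only.

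**Figure D4:**
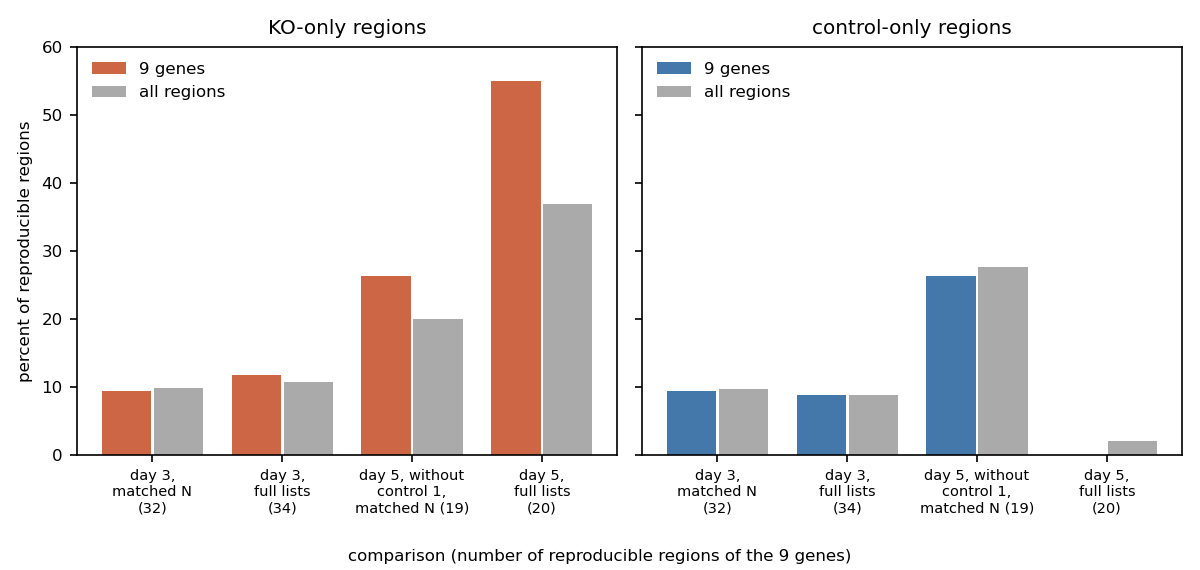
Percent of reproducible regions (vertical axis) found in the KO alone (left panel) and in the control alone (right panel), for the 9 genes (coloured bars, number of regions in brackets) and the genome (grey bars). Matched N means equal list length. At day 3 and equal length the 9 genes stand at 9.38% in both panels, beside 9.77% and 9.59% of the genome.

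Between days, the control libraries shared 3 reproducible regions of the 9 genes among their 14519 best summits, and 0 were found at day 3 only and 0 at day 5 only (22.5% and 13.4% of 15157 regions in the genome). In the KO, whose lists allowed 42129 summits, 25 regions were reproducible. Of these, 3 (12%) were found at day 3 only and 3 (12%) at day 5 only, against 10.8% and 8.63% of 41733 regions in the genome. Day 3 only were the regions 70.9 kb below Eya1, 25.3 kb above Pax7 (139858815 to 139858827) and 27.4 kb below Myod1. With equal scores ordered by position in place of at random, 1 was found at day 3 only, because 1451 to 2031 summits tied at the limit in 3 of the 4 lists. Day 5 only were a pair of regions in the Eya1 body (14173393 to 14173535 and 14225569 to 14225629) and one 2.7 kb above Meox1 (101897004 to 101897007), at 41.2% and 51.4% of the KO lists. The Eya1 region at 14225569 was the only one of these 3 with no summit in any day 3 library.

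The number of summits per gene at equal list length was tested for all 18538 genes with a summit in at least 2 libraries, by exact permutation of the genotype within days (two-sided, 216 arrangements). The mean difference over the 3 days, KO minus control, was 0.83 for Pax7, 0.50 for Pax3, 0.33 for Myog, 0.17 for Myod1, −0.17 for Myf6, −0.33 for Myf5 and for Meox1, and −0.50 for Six4 and for Eya1. The smallest exact p was 0.167 (Six4), and the Benjamini-Hochberg adjusted p was 1 for each of the 9. The test could not have called any of them: with no summit at day 10 the smallest possible p is 0.0556, and it is 0.333 for Pax3, Pax7, Myf5, Myod1 and Myog, which had summits at day 3 alone among those compared. In the genome 0.129% of genes had an unadjusted p under 0.05 with more summits in the KO, 0.129% had one with fewer, and 0.0% passed after adjustment. Of the 9, 4 were higher and 5 lower in the KO, with a median of −0.17, beside 35.6% and 36.6% and a median of 0 over all genes.

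For Pax7 the day 3 means at equal length were 7.5 summits in the KO and 5 in the control, and for Pax3 8 and 6.5. Those of Eya1 were 5.5 and 7.5, and those of Six4 4 and 5. The Six4 difference of day 3 lies in the region nearer to an end of Mnat1. The spread between the Pax7 controls (3 and 7 summits) was wider than the difference between its means. Day 5 minus day 3 was tested within genotypes among the 14519 best summits (36 arrangements, smallest possible exact p 0.0556). The difference was −1.25 for Eya1 (exact permutation p = 0.167), −0.75 for Myf6 (exact permutation p = 0.167), 0.25 for Meox1 (exact permutation p = 1) and 0 for the other 6. As summits per 10000 of full lists the Myf6 difference was 0.175, the opposite sign, and that of Myod1 −0.431, both at the smallest possible exact permutation p of 0.0556. Myf6 held 1 summit in each full list of days 3 and 5, and every day 5 list was shorter than every day 3 list. Its sign and p in that setting therefore follow from list length alone. In the same setting 5346 of all 18538 genes were at the smallest p. Among the 14519 best Myf6 held 1 in every day 3 library and in control replicate 1 of day 5, and 0 in the other day 5 libraries. At equal length none of the 9 reached the smallest p, which 3.1% of all genes did with more summits at day 5 and 1.81% with fewer.

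Other genes of the same lineage were counted in 3 lists. Of 15 genes of the paraxial mesoderm and somite (Tbx6, Msgn1 and Tcf15 among them), 3 had more summits in the KO and 7 fewer at equal list length. Of 12 tested of the 14 genes of skeletal muscle differentiation (such as Acta1, Ckm and Mymk), 7 had more and 2 fewer. Of 14 partners of the myogenic factors (such as Mef2c and Tcf12), 6 had more and 5 fewer. Over all genes tested, 35.6% had more and 36.6% fewer, and the counts of the lists were not tested against these shares. No gene of the 3 lists had an exact permutation p under 0.05 before adjustment. The lists differed at day 10, when 0 to 1 of the 15 paraxial genes, 3 to 10 of the 14 partners and 1 to 2 of the 14 differentiation genes had one, beside 0 of the 9.

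Compared with all 102875 regions with a summit at day 3 or 5, the 64 regions had the same median number of libraries (3). They were found in all 8 libraries in 3 cases (4.69% against 10.3%), in 1 library in 21 (32.8% against 34.2%), in both genotypes in 36 (56.2% against 53.1%), in the control alone in 12 (18.8% against 21.8%) and in the KO alone in 16 (25.0% against 25.2%). The 3 shared by all 8 were those of Eya1, Myf6 and Six4. Within 1 kb of a gene end lay 11 of the 64 (17.2% against 16.6%). These shares are descriptions of these libraries, without a test.

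By the mean absolute difference in summits per 10000 over the 12 libraries, the genes with the pattern most like Pax3 were Rap1gap (0.0455) and Zfp618 (0.0668). Those most like Eya1 were Mctp2 (0.0735) and Dtna (0.0765), and those most like Pax7 were Fgd2 (0.095) and Nyap2 (0.0952). Rap1gap held 7 and 6 summits in the day 3 controls, 8 and 7 in the day 3 KO, 0 and 3 in the day 5 controls and 6 and 4 in the day 5 KO, close to the Pax3 numbers in each library. Mctp2 likewise held 1 and 1 in the day 5 controls and 8 and 6 in the day 5 KO, the same numbers as Eya1, so the day 5 numbers of Eya1 were not found at Eya1 alone.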

How the data were processed

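ATAC-seq was measured in 12 libraries, 2 in each of 6 groups taken from the labels. The labels do not say whether the 2 are separate cultures, so each p-value covers the spread between these libraries alone, which may be technical. Alignment and peak calling by the authors involved Bowtie2 2.2.4, MACS2 and mm10, per the submitters' processing notes. Column 5 of the deposited lists is a −log10 score (whether of p or of q is not stated in the labels) and served here for ranking inside a list. Smallest scores were 1.30 to 1.33 at days 3 and 5 and 1.78 to 1.85 at day 10.

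Gene positions and promoter windows came from RefSeq (GRCm38.p6). The gene table has no strand, so either gene end was used. Pax3, Myf6, Myod1, Eya1 and Meox1 have no printed window. Equal scores were ordered at random with a fixed seed, and a printed place is the mean rank of tied scores in percent of the list. Python 3.11.15, numpy 2.4.6, pandas 2.3.3 and matplotlib 3.10.9 were used, and the scripts were tested on simulated data. Within 1 day, 2 against 2 libraries give no p under 0.333. At most 4.13% of summit positions were identical between lists. The 9 genes, the lists and the motifs were chosen with earlier results of these data known, and 1 gene of the myogenic partner list is not reported here and was left out of its counts. Regions called in 1 group alone at equal list length and up to 4 more per gene (ordered by number of libraries, then rank) were named by rule, and others after their values were seen. Alternatives were the number of summits taken, merging at 100 and 500 bp, 50 kb assignment, absence judged on full lists, summits per 10000, a replicate block and leaving out each library. Ordering ties by position, and full lists or left-out libraries between days, were chosen after seeing the data.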

Additional observations from a re-analysis of the deposited data

How the results depend on the processing

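Counts of regions are given with the number of reproducible regions of the 9 genes and the genome share in the same setting. With N divided by 2, 1 of 12 was KO-only and 1 of 12 control-only at day 3 (9.08% and 9.1%), and with merging at 500 bp 5 of 36 were control-only (9.26%). Leaving out 1 library at a time gave 5 to 9 KO-only and 4 to 9 control-only of 38 to 42 at day 3 (13.1% to 18.6% and 11.5% to 19.8%), and 0 to 5 and 0 to 5 of 2 to 19 at day 5 (18.1% to 22.3% and 8.69% to 28.3%). On full lists 11 of 20 were KO-only at day 5 (36.9%). Between days, full lists gave 13 of 24 day 3 only in the control (48.0%) and 6 of 34 in the KO (17.2%). Leaving out 1 library gave 0 to 7 (day 3 only, 24.6% to 28.8%) and 0 to 6 (day 5 only, 14.9% to 32%) of 3 to 22 in the control, and 4 to 9 (14.5% to 17.7%) and 3 to 8 (10.3% to 21.1%) of 28 to 36 in the KO. Equal scores ordered by position gave 1 of 25 day 3 only in the KO (10.8%).

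Genes at an unadjusted p under 0.05 between genotypes numbered 48 of 18538. Full lists as summits per 10000 gave 1272, the replicate block 9 and leaving out 1 library 44 to 97. Without control replicate 1 of day 5 there were 97 and without control replicate 2 of that day 79. Genes at the smallest p between days numbered 909, and 5346 as summits per 10000 of full lists. No gene passed adjustment under any of these. As summits per 10000 of full lists the KO minus control difference of Myf5 was 0.00948 and that of Eya1 0.21, and without control replicate 1 of day 5 that of Eya1 was 0.50, each with the sign opposite to the equal-length value. Over all left-out libraries Eya1 gave −0.667 to 0.50. Other alternatives kept the direction of the KO minus control difference of the 9 genes or gave 0. As summits per 10000 of full lists it was 0.35 for Pax3, 0.133 for Myog and 0.126 for Myod1. Each of these had an exact permutation p of 0.0556, the smallest possible without day 10 summits. At equal length the exact permutation p was 0.333 for Myog and higher for Pax3 and Myod1. The full-list setting put 1272 of 18538 genes under 0.05, against 48 at equal length. Its share of all genes at 0.0556 or less is not given. In that full-list setting Myf6, Six4 and Meox1 were lower in the KO, at −0.0923, −0.0128 and −0.0829. Between days, Myf6 was −0.75 at equal length and 0.175 as summits per 10000 of full lists. With 1 Myf6 summit in each full list, the latter value follows from list length alone. Eya1 was −1.25 at equal length and 0 with assignment within 50 kb, so that difference rests on summits farther from the gene. Same-numbered libraries did not deviate together (correlations of −0.0212, −0.00697 and −0.0213 at days 3, 5 and 10), so no pairing by number was seen. With 2 libraries a group this cannot tell whether same-numbered libraries share a culture. The causes were not tested. The list length of control replicate 1 at day 5 limits every comparison of that day, and 2 libraries a group limit every p.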
